A study of Mus musculus with 12 samples.

Results

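The genes described here code for the scaffold of the muscle sarcomere and for the proteins that assemble it: Z-disc, M-band and thick-filament proteins, the caps and stabilisers of the thin filament, the desmin filament and muscle chaperones and ubiquitin ligases. The 45 members were listed by symbol and matched to the Ensembl gene identifiers of the deposited table, which holds 46983 genes. Myosin, actin, tropomyosin and troponin chains are not among them. All 45 members were found, and all were above 0 in at least 1 library. Of them, 43 reached 0.1 FPKM in 3 or more of the 12 libraries, the filter on low values, and so were among the 18023 genes tested. *Myoz3* and *Mybpc3* did not pass. FPKM means fragments per kilobase of transcript, scaled to the number of mapped fragments of the library, so that levels of different genes can be compared per length.

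A sarcomere is bounded by Z-discs, where α-actinin crosslinks the thin filaments, and is centred on the M-band, where myomesins tie the thick filaments together. Titin spans from the Z-disc to the M-band, nebulin runs along the thin filament, and leiomodins and tropomodulins act at its pointed end. In myoblasts that leave the cell cycle and fuse to myotubes, these genes are switched on together with the contractile chains, under myogenic factors such as MyoD and myogenin and the MEF2 and SRF factors.

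C2C12 is a mouse myoblast cell line that forms myotubes in culture. WT cells carried the PB-IP vector, and PPARγ/+ cells carried the same PiggyBac vector with the coding sequence of PPARγ, a nuclear receptor that drives adipocyte differentiation. The vector was introduced with a transposase, positive cells were selected with puromycin, and whether each line was 1 clone or a pool is not given in the sources used here. RNA was sequenced on 0d and on 5d of differentiation, in the 4 groups WT_0d, WT_5d, PPARγ/+_0d and PPARγ/+_5d with 3 libraries each, and the study asked how overexpressed PPARγ acts on this differentiation. The study calls the libraries of a group biological replicates, but no source used here says whether they came from separate cultures, so the p-values measure only the spread between these libraries. In such bulk samples, fewer differentiated cells and less RNA per cell cannot be told apart.

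The libraries held 15556076 to 22010114 fragments on genes, as recovered from the FPKM, and 11391 to 11634 genes at 1 FPKM or more. *Pparg* itself was at 7.56, 5.10 and 6.92 FPKM in the libraries of WT_0d and 44.4, 28.0 and 46.4 FPKM in those of PPARγ/+_0d, a 6.07-fold difference of the means. On 5d it was at 3.12, 3.53 and 4.59 against 40.1, 44.1 and 92.7 FPKM, a 15.7-fold difference, and on both days the groups did not overlap, which with 3 against 3 libraries gives the smallest two-sided exact permutation p possible, 0.1. The 8 markers of skeletal muscle identity summed to 46.4 to 157 FPKM in WT_0d and 675 to 2715 in WT_5d, and to 27.7 to 51.0 FPKM in PPARγ/+_0d and 799 to 923 in PPARγ/+_5d. *Acta1*, itself a contractile chain, made most of the sums on 5d. Of the 8, all tested, 6 rose and 1 fell in WT cells, and 6 rose and 0 fell in PPARγ/+ cells. On 0d, 1 of them was called lower in PPARγ/+ cells. Markers of other cell types were set beside these. The 5 fibroblast or mesenchymal markers moved with the day, as the members did: they summed to 193 to 291 FPKM in WT_0d and 869 to 1355 in WT_5d, and to 172 to 239 FPKM in PPARγ/+_0d and 1348 to 1429 in PPARγ/+_5d. All 4 of them that were tested, *Pdgfra*, *Dcn*, *Lum* and *Col3a1*, were called higher on 5d in both cell types, with median changes of 3.09 and 3.65 on the log2 scale, and *Tcf21* was at 0 in every library. The 8 adipocyte markers summed to 10.1 to 14.9 FPKM in WT_0d, 3.16 to 17.8 in WT_5d, 29.6 to 42.6 in PPARγ/+_0d and 58.2 to 135 FPKM in PPARγ/+_5d. Those at a mean of 1 FPKM or more numbered 1 of 8 in WT_5d and 5 of 8 in PPARγ/+_5d. Of the 6 tested, 2 were called higher in PPARγ/+ cells on 5d and 3 on 0d, *Adipoq* reached 8.03, 12.7 and 40.5 FPKM in PPARγ/+_5d, and *Lep* was at 0 in every library. The heart markers *Nppa* and *Myl7* lay at or near 0 in every group, and the 7 heart markers summed to 6.43 to 12.4 FPKM. Of the 5 heart markers tested, 1 rose and 1 fell in WT cells, and 0 rose and 0 fell in PPARγ/+ cells. On 0d, 1 heart marker was called lower in PPARγ/+ cells. The 5 osteoblast or cartilage markers summed to 10.6 to 25.6 FPKM. The 6 smooth muscle markers summed to 497 to 581 FPKM in WT_0d and 1119 to 1372 in WT_5d, and to 494 to 675 FPKM in PPARγ/+_0d and 839 to 1000.2 in PPARγ/+_5d. They were led by *Acta2*, at 1152 ± 125 in WT_5d and 864 ± 83 FPKM in PPARγ/+_5d (SD, n = 3), while *Myh11* was near 0. Of the 5 tested, 2 rose and 1 fell in WT cells, and 1 rose and 2 fell in PPARγ/+ cells. What part these markers had in the results below was not tested.

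The WT libraries were spread widely in these genes. On 5d, replicate 3 of the WT cells held the lowest value of its group for 40 of the 43 tested members (93.0%), against 30.6% of all genes tested, and the mean of replicates 1 and 2 was a median of 4.07 times its value. The other 3 members, *Synm*, *Tmod4* and *Bag3*, were highest in it. Replicate 1 of WT_5d was the highest of its group for 39 of 43 members (90.7%), against 30.0% of all genes tested. At the median, the members in replicate 3 lay near those of the PPARγ/+_5d libraries. The log2 ratio of the PPARγ/+_5d mean to replicate 3 had a median of 0.14 over the 43 members. The like value over all genes was not taken. The *Pparg* value of replicate 3, 4.59 FPKM, was that of a WT library, and the *Myog* there, the gene of myogenin, was at 90.0 FPKM, against 271 and 215 in the other two WT libraries and 78.8, 85.9 and 90.3 FPKM in PPARγ/+_5d. The adipocyte markers summed to 17.8 FPKM in it, beside 3.16 and 6.05 in the other two, most of it from *Plin4*. On 0d, replicate 2 of the WT cells was the highest of its group for 34 of 43 members (79.1%), against 26.2% of all genes tested, with *Myog* at 15.7 FPKM beside 2.69 and 1.47. Summed over the members, WT_5d held 2757, 2208 and 927 FPKM in replicates 1 to 3, and PPARγ/+_5d held 1054 to 1177 FPKM. The median coefficient of variation of members with a group mean of at least 1 FPKM was 59.1% in WT_5d, against 11.5% over all genes, and 8.85% in PPARγ/+_5d, against 5.95% over all genes. Comparisons with WT_5d are therefore given with and without replicate 3. That library was singled out by its low values in these same members. Results without it describe its weight and are not independent support for a difference.

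The heat map of all members shows the whole pattern.

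**Figure D1:**
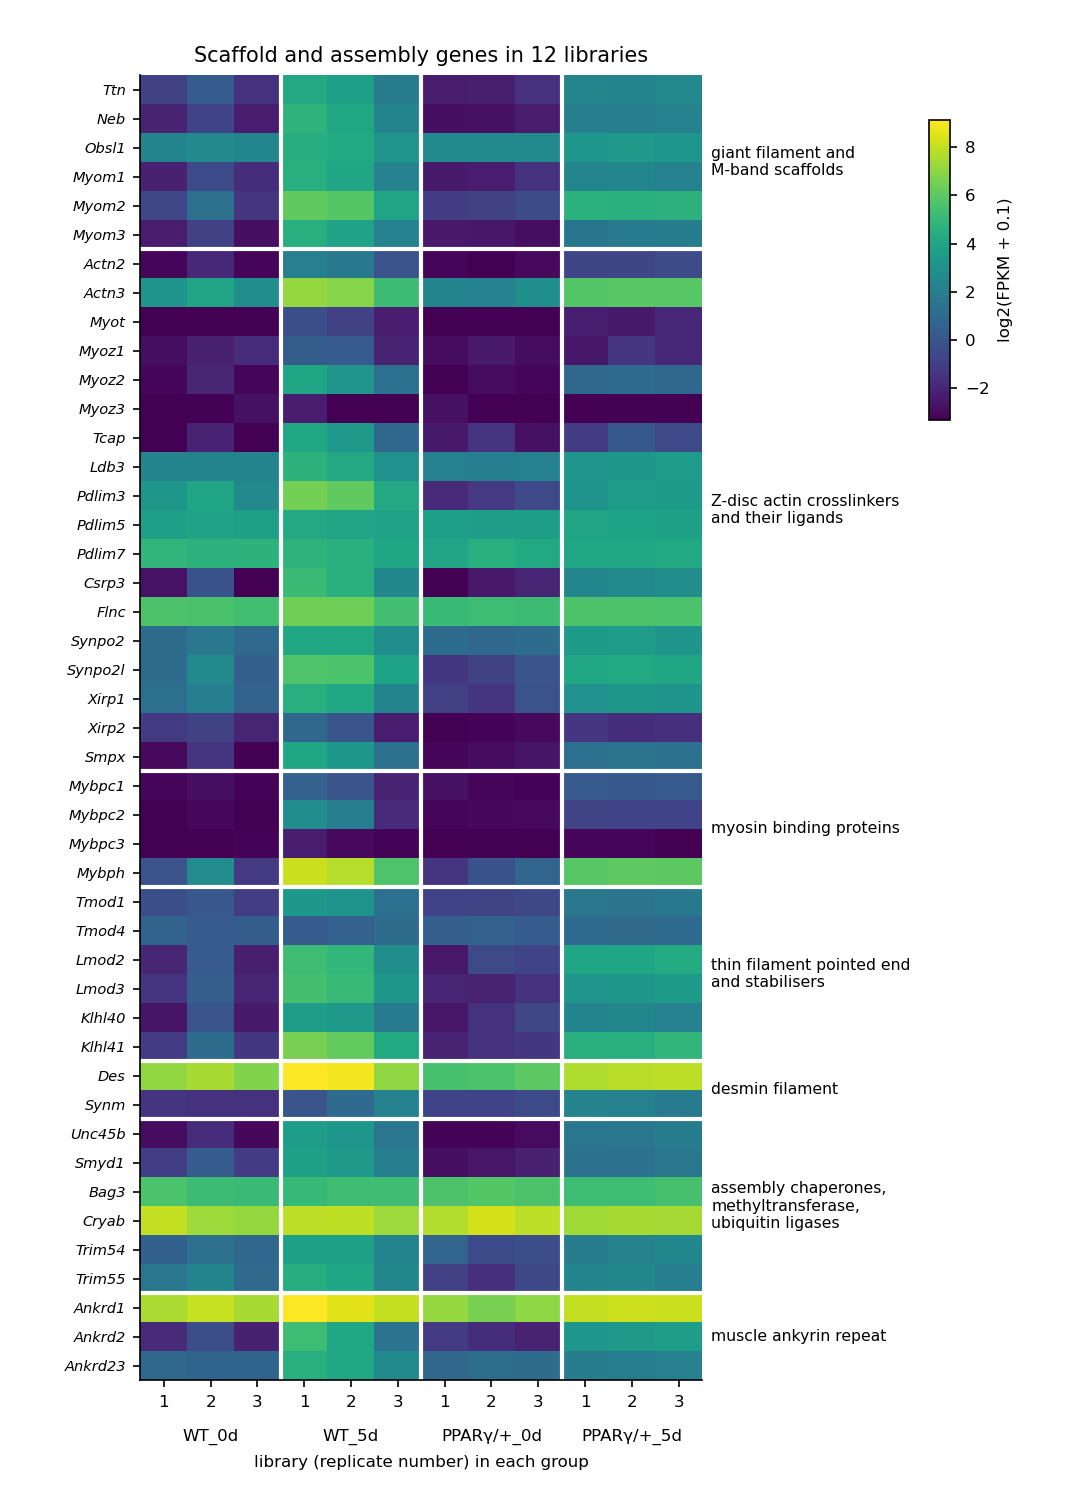
Level of each of the 45 genes in each of the 12 libraries, as log2(FPKM + 0.1) in colour, with genes in order of their role and libraries by group and replicate number. Most genes are dark on 0d and bright on 5d in both cell types, replicate 3 of WT_5d looks like the PPARγ/+_5d libraries, and *Pdlim5*, *Pdlim7*, *Flnc*, *Bag3*, *Cryab* and *Tmod4* change little in colour.

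Promoter sequence is shown for 6 members chosen for the patterns described below: *Pdlim3*, *Des* and *Xirp2*, which were lower in PPARγ/+ cells on 0d, *Klhl41* and *Mybph*, which rose steeply in both cell types, and *Bag3*, which did not rise in either. Each line gives the 250 bases before the RefSeq start of the gene in GRCm38.p6, 5′ to 3′ along the gene, with every E-box, CANNTG, in capitals. E-boxes are the sites that MyoD and myogenin bind, and in the *Xirp2* line CACATG and CATGTG overlap.
Pdlim3, chr8:45885237-45885486, + strand: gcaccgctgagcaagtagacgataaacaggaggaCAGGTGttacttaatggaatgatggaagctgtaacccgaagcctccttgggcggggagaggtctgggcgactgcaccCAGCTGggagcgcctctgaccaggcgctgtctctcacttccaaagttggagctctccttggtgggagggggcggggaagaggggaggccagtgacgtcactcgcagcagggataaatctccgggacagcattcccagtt
Xirp2, chr2:67445752-67446001, + strand: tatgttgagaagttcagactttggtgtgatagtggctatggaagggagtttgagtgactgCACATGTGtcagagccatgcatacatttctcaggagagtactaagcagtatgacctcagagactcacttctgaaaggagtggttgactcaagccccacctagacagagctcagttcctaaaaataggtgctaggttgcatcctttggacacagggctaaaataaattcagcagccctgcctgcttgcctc
Des, chr1:75360042-75360291, + strand: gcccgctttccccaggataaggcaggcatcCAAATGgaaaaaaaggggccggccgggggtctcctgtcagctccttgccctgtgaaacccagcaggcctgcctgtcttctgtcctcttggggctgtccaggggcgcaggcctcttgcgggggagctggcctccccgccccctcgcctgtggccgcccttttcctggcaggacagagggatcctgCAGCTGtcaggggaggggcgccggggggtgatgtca
Klhl41, chr2:69669870-69670119, + strand: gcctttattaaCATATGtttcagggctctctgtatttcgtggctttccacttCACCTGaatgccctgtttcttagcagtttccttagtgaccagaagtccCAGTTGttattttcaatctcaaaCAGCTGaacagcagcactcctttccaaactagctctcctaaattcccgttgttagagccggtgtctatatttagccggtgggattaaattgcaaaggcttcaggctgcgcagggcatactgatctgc
Mybph, chr1:134193198-134193447, + strand: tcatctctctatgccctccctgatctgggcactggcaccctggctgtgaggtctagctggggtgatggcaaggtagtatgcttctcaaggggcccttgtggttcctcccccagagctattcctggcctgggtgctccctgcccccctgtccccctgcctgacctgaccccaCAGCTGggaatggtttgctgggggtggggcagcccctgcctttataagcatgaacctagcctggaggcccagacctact
Bag3, chr7:128523333-128523582, + strand: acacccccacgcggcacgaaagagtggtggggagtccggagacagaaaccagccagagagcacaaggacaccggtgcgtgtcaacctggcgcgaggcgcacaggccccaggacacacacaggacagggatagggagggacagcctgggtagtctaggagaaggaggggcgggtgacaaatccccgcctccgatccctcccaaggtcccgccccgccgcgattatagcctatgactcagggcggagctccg

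RefSeq promoters could be matched for 34 of the 45 members, with 40 windows, and were compared with all 32851 windows of the same length, both strands being searched. An E-box stood in 72.5% of the member windows and 66.2% of all windows. Of the 2 forms that lie within CANNTG and that myogenic factors prefer, CAGCTG was in 27.5% against 13.0%, and CAGGTG in 37.5% against 17.2%. A MEF2 site was found in 9 member windows (22.5%), against 2.92% of all, in the 8 members *Xirp2*, *Klhl41*, *Ttn*, *Mybpc3*, *Myoz2*, *Synpo2*, *Myom3* and *Synpo2l*. The CArG box, bound by SRF, was in 7.5% against 1.47%, in *Ldb3* and *Myom1*. These were 3 member windows, among them overlapping windows of *Ldb3*, so that the same site may have been counted more than once. By contrast, TATAAA stood in 12.5% against 12.4% of windows, and the nuclear receptor half-site AGGTCA in 4 of the 40 member windows against 14.0% of all. A match of letters is a description and not a bound site.

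From 0d to 5d, most of the scaffold genes rose in WT cells. At an unadjusted limma p of at most 0.05 and a change of at least 2-fold, 34 of the 43 members rose and 0 fell, where 8.94% of all 18023 genes rose and 7.53% fell. Without replicate 3 of WT_5d, 37 members were called, with *Des*, *Xirp2* and *Ankrd1* added, against 9.11% of all genes. The median change of the members over all 6 libraries was 3.01 on the log2 scale, against -0.08 over all genes. All 6 giant and M-band genes rose, as did 13 of 17 Z-disc genes, all 3 myosin binding genes tested, 5 of 6 pointed-end genes and 4 of 6 assembly genes, with 1 of the 2 desmin filament genes and 2 of the 3 ankyrin repeat genes. Log2 changes in this and the other comparisons are on the log2(FPKM + 0.1) scale, with the SE of the fit, and this scale understates the change of genes at low levels.

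Most scaffold genes rose in PPARγ/+ cells too. There, 35 of 43 members rose and 0 fell, against 9.11% and 6.06% of all genes, and the median change was 3.20 on the log2 scale, against -0.10 over all genes. By role, these were 5 of 6 giant and M-band genes, 13 of 17 Z-disc genes, 3 of 3 myosin binding proteins, 5 of 6 pointed-end genes, 2 of 2 desmin filament genes, 4 of 6 assembly genes and 3 of 3 ankyrin repeat genes. Of the 43, 32 rose in both cell types and 6 in neither, counts for which no share over all genes was taken. 3 of the members tested, *Myot*, *Mybpc1* and *Mybpc2*, had no library on 0d at the level of the filter, as had 538 of all genes tested. *Actn2*, *Csrp3*, *Myom3*, *Myoz1*, *Myoz2*, *Neb*, *Smpx*, *Tcap* and *Unc45b* had some, but fewer than the 3 that the filter asks for. All of these members could pass only through 5d, so a higher level on 5d was in part a condition of their being tested. How many of all genes were in the second case was not taken. Members that held 3 fragments or fewer per library on 0d were also set to the lower limit of their fragment ratio, with no FPKM added. The median change then came to 3.09 for the WT cells and 3.36 for the PPARγ/+ cells. As the other members stayed on the log2(FPKM + 0.1) scale, these medians mix scales and are not lower bounds.

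Genes of the M-band and the giant proteins rose in 6 of 6 cases in WT cells and in 5 of 6, all but *Obsl1*, in PPARγ/+ cells. *Myom2*, the myomesin of fast fibres, was at 0.518, 2.35 and 0.293 FPKM in WT_0d and 67.3, 56.5 and 15.4 FPKM in WT_5d. In PPARγ/+ cells it went from 0.343, 0.455 and 0.621 to 24.2, 23.5 and 25.5 FPKM. Thus *Myom2* rose by 5.53 ± 0.82 in WT cells and 5.45 ± 0.17 in PPARγ/+ cells on the log2 scale, and the 0d and 5d libraries did not overlap in either. The other myomesin genes were lower. *Myom1* rose from 0.308 ± 0.257 to 14.5 ± 9.11 FPKM (SD, n = 3) in WT cells and from 0.147 ± 0.0969 to 4.79 ± 0.424 FPKM in PPARγ/+ cells. *Myom3* rose from 0.197 ± 0.224 to 13.7 ± 9.13 and from 0.0652 ± 0.0238 to 3.32 ± 0.553 FPKM. The giant genes *Ttn*, coding for titin, and *Neb*, coding for nebulin, were nearly silent on 0d. *Ttn* went from 0.613 ± 0.471 to 11.6 ± 7.37 FPKM in WT cells and from 0.149 ± 0.0816 to 5.10 ± 0.469 FPKM in PPARγ/+ cells, and *Neb* from 0.229 ± 0.204 to 16.5 ± 11.3 and from 0.0606 ± 0.0260 to 4.03 ± 0.246 FPKM.

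*Obsl1*, whose product is a cytoskeletal adaptor, was the one gene of this group that was clearly expressed on 0d. Its values were 4.85, 5.63 and 5.11 FPKM in WT_0d and 21.9, 19.5 and 8.94 FPKM in WT_5d. In PPARγ/+ cells they were 5.86, 5.84 and 5.95 and then 9.32, 10.3 and 9.10 FPKM. *Obsl1* rose by 1.57 ± 0.33 on the log2 scale in WT cells, while the change in PPARγ/+ cells, 0.69 ± 0.07, was under 2-fold.

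Z-disc genes of the α-actinin and muscle LIM proteins rose in both cell types. *Actn3*, the α-actinin of fast fibres, was already at 8.66, 15.1 and 7.25 FPKM in WT_0d and 4.83, 4.43 and 7.25 FPKM in PPARγ/+_0d. On 5d it was at 141, 117 and 36.5 and 55.9, 59.5 and 59.2 FPKM. It rose by 3.09 ± 0.55 in WT and 3.41 ± 0.17 in PPARγ/+ cells, and no library of 0d reached those of 5d. Its relative *Actn2* was lower, and rose from 0.0622 ± 0.0855 to 2.72 ± 1.75 FPKM in WT cells and from 0.0120 ± 0.0124 to 0.551 ± 0.0658 FPKM in PPARγ/+ cells. *Csrp3*, coding for the muscle LIM protein, went from 0.0530, 0.774 and 0 to 35.4, 23.9 and 5.46 FPKM in WT cells. In PPARγ/+ cells its values were 0, 0.0788 and 0.141 and then 5.15, 5.83 and 7.02 FPKM. With 5 fragments in all on 0d there, its recovered fragments gave a ratio of 83.9 (exact 95% interval 35.6 to 260.1, for counting error only).

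The PDZ-LIM genes, whose products bind α-actinin, fell into clearly different patterns. *Pdlim3*, coding for ALP, was at 9.41, 15.6 and 5.78 FPKM in WT_0d and 91.5, 68.9 and 18.1 FPKM in WT_5d. In PPARγ/+_0d it was at 0.182, 0.316 and 0.580 FPKM, and in PPARγ/+_5d at 8.19, 11.2 and 11.1 FPKM. *Pdlim3* thus rose in both cell types, by 2.35 ± 0.66 and 4.56 ± 0.32, yet every PPARγ/+ library lay below every WT library of its day. *Ldb3*, the gene of ZASP, rose from 4.83 ± 0.0569 to 17.4 ± 9.40 FPKM in WT cells and from 4.21 ± 0.174 to 9.89 ± 1.23 FPKM in PPARγ/+ cells. *Pdlim5* and *Pdlim7*, whose products are also found outside striated muscle, were not called. *Pdlim5* was at 13.0, 14.1 and 13.6 FPKM in WT_0d and 17.9, 15.2 and 14.2 in WT_5d, and at 12.9, 12.4 and 12.5 in PPARγ/+_0d and 15.3, 14.9 and 13.7 in PPARγ/+_5d. *Pdlim7* was at 29.0, 25.5 and 26.4 FPKM and then 26.9, 24.2 and 15.8 FPKM in WT cells, and at 15.5, 22.1 and 18.8 and then 16.8, 17.0 and 18.9 FPKM in PPARγ/+ cells.

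Telethonin and the calsarcins, ligands of titin and α-actinin at the Z-disc, were near 0 on 0d. *Tcap*, coding for telethonin, which caps the ends of titin, was at 0, 0.125 and 0 FPKM in WT_0d and 17.2, 10.5 and 1.67 FPKM in WT_5d. In PPARγ/+ cells it was at 0.0865, 0.283 and 0.0483 and then 0.356, 0.981 and 0.568 FPKM. *Tcap* rose by 5.71 ± 0.86 on the log2(FPKM + 0.1) scale in WT cells, a 52.4-fold change, and by 1.65 ± 0.46 in PPARγ/+ cells, a 3.14-fold change. The added 0.1 FPKM lowers these folds: the fragments recovered for WT cells, 644 against 3, gave a ratio of 215 (73.4 to 1047). *Myoz2* was at 0.0151, 0.151 and 0.0126 and then 15.7, 8.92 and 2.27 FPKM in WT cells. In PPARγ/+ cells *Myoz2* was at 0, 0.0336 and 0.0134 and then 1.70, 1.94 and 1.73 FPKM, a ratio of 111 (43.1 to 410.1) from 4 fragments. It rose in both. *Myoz1* was called in WT cells, at 0.0398, 0.123 and 0.20 and then 1.18, 1.08 and 0.136 FPKM, with an unadjusted p of 0.0446. In PPARγ/+ cells it was at 0.0317, 0.0889 and 0.0354 and then 0.0745, 0.288 and 0.166 FPKM and was not called. *Myoz3*, with 1 fragment recovered in WT_0d and 2 in WT_5d, was at or under the floor of 3 fragments in every group. No fold is therefore given. Its length was inferred as the smallest that gave whole fragments, 870 bases against 3436 annotated, so its true counts may be higher. *Myot*, the gene of myotilin, had 0 fragments on 0d in both cell types, and was at least 21.1-fold higher in WT_5d and at least 6.34-fold higher in PPARγ/+_5d, with the floor set over the group.

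*Flnc* and the Xin genes link the Z-disc to actin, membrane and repair sites. *Flnc*, coding for filamin C, was abundant throughout, at 50.9, 47.4 and 40.3 FPKM in WT_0d and 85.8, 83.7 and 42.9 in WT_5d. In PPARγ/+ cells it was at 33.6, 38.8 and 36.8 and 50.3, 50.8 and 48.4 FPKM, and neither change reached 2-fold. *Xirp1* was at 2.23, 4.03 and 1.44 and then 22.3, 17.3 and 4.86 FPKM in WT cells, and at 0.414, 0.269 and 0.824 and then 7.73, 9.60 and 8.62 FPKM in PPARγ/+ cells. It rose by 2.35 ± 0.63 and 3.96 ± 0.32. *Xirp2* was lower, at 0.331, 0.457 and 0.148 and then 1.72, 0.861 and 0.103 FPKM in WT cells. It was nearly absent from PPARγ/+_0d, at 0, 0.00961 and 0.0229 FPKM, and reached 0.286, 0.214 and 0.229 FPKM in PPARγ/+_5d. Replicate 3 of WT_5d lay below all 3 WT_0d libraries in *Xirp2*, and the gene was called in PPARγ/+ cells, with a rise of 1.63 ± 0.22, and not in WT cells, with 0.86 ± 0.81, though the difference of these changes, 0.77 ± 0.89, was not called either. The synaptopodin family member *Synpo2l* rose from 2.04, 6.06 and 1.31 to 51.7, 49.0 and 14.9 FPKM in WT cells and from 0.310, 0.423 and 0.881 to 17.9, 18.8 and 16.2 FPKM in PPARγ/+ cells. Its relative *Synpo2* rose from 2.28 ± 0.661 to 13.5 ± 5.78 and from 1.90 ± 0.194 to 10.2 ± 1.34 FPKM, and *Smpx*, a small muscle protein gene, from 0.106 ± 0.165 to 9.46 ± 6.89 and from 0.0374 ± 0.0214 to 2.47 ± 0.205 FPKM.

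Of the myosin binding proteins, which lie along the thick filament, *Mybph* was by far the most abundant. It went from 0.819, 6.35 and 0.334 FPKM to 284, 211 and 51.0 FPKM in WT cells. PPARγ/+ cells showed a like step, from 0.264, 0.790 and 1.55 to 59.5, 66 and 64.4 FPKM. Its rises were 6.73 ± 1.10 and 6.28 ± 0.50, the largest fitted changes of the 43 members in each cell type. *Mybpc1*, the slow form of myosin binding protein C, was at 0.0114, 0.0438 and 0.00954 and then 1.43, 0.87 and 0.136 FPKM in WT cells, and at 0.0453, 0.0169 and 0.0101 and then 1.05, 0.986 and 1.06 FPKM in PPARγ/+ cells. For the fast form, *Mybpc2*, the values were 0, 0.0220 and 0 and then 6.76, 3.96 and 0.182 FPKM in WT cells. In PPARγ/+ cells *Mybpc2* was at 0.0113, 0.0212 and 0.0254 and then 0.481, 0.464 and 0.477 FPKM. From 2 and 5 fragments on 0d, its ratios were 458 (126 to 3788) in WT and 24.7 (10.3 to 77.8) in PPARγ/+ cells. The heart form *Mybpc3* held 13 fragments in WT_5d, 1 in WT_0d, 2 in PPARγ/+_5d and 0 in PPARγ/+_0d. The exons of *Mybph* share 1162 bases with *Adora1* on the other strand, and since the library kit does not mark strand, reads of the pair cannot be told apart there.

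The plot of single members shows these values by library.

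**Figure D2:**
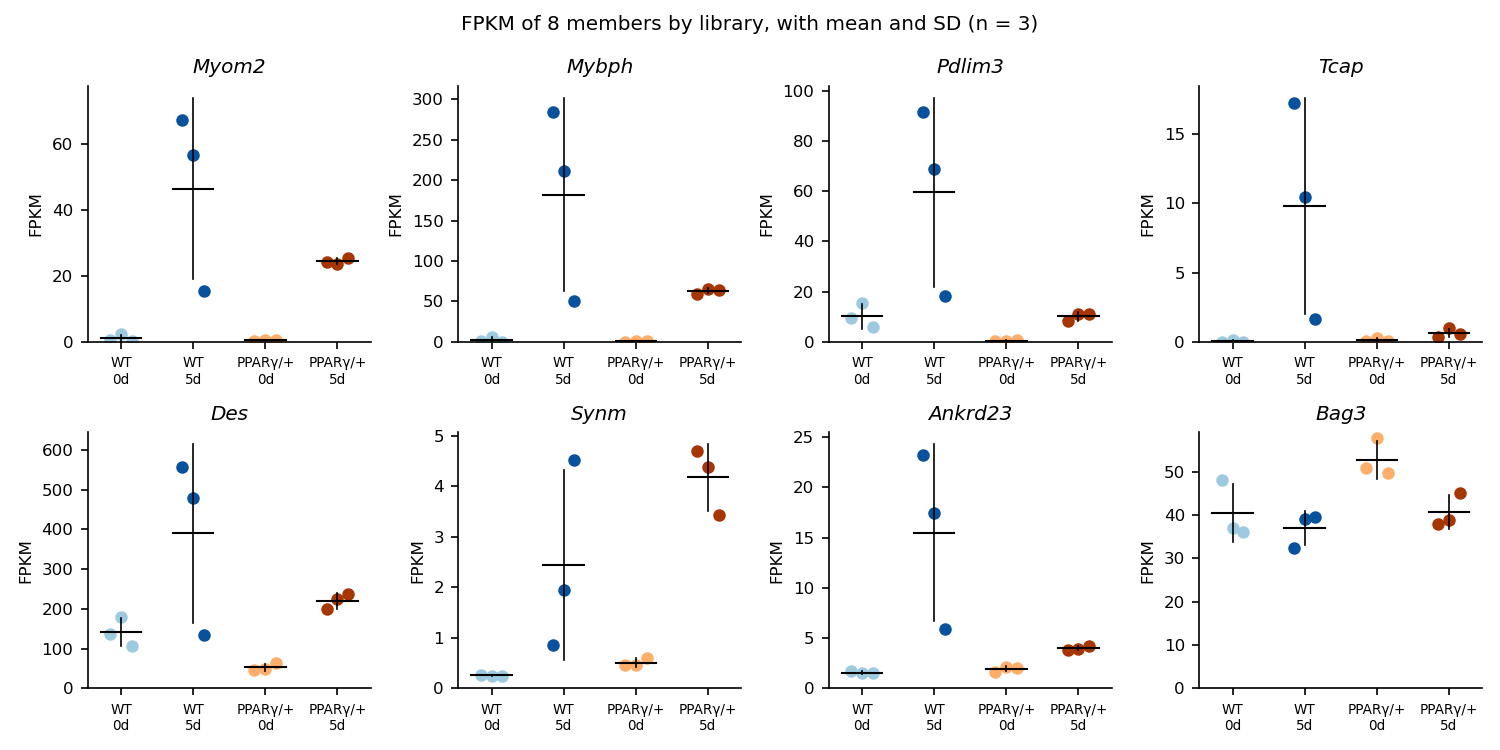
FPKM of *Myom2*, *Mybph*, *Pdlim3*, *Tcap*, *Des*, *Synm*, *Ankrd23* and *Bag3* in each library, on a linear axis from 0 for each gene, with 1 point per library, a horizontal bar at the mean of each group and a vertical bar for the SD (n = 3). WT_5d replicate 3, the right point of its group, is the lowest of the 3 in 6 panels and the highest for *Synm*, at 4.52 FPKM, and *Bag3*, which stays between 32.4 and 57.8 FPKM in all 12 libraries.

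The genes of the thin filament's pointed end rose with the rest, *Tmod4* apart. *Lmod2*, a leiomodin, was at 0.157, 1.10 and 0.109 and then 38.9, 30.4 and 7.27 FPKM in WT cells, and at 0.0830, 0.563 and 0.464 and then 16.0, 16.5 and 19.8 FPKM in PPARγ/+ cells. *Klhl41*, whose product stabilises nebulin, was at 0.367, 2.04 and 0.307 and then 95, 69.2 and 18.6 FPKM in WT cells. In PPARγ/+ cells *Klhl41* was at 0.13, 0.258 and 0.308 and then 22.2, 22.9 and 28.8 FPKM. Its rises were 6.07 ± 0.83 and 6.25 ± 0.23, with no overlap of days in either cell type. *Lmod3* rose from 0.563 ± 0.601 to 28.7 ± 17.6 and from 0.178 ± 0.0607 to 9.82 ± 1.0 FPKM. *Klhl40*, which stabilises *Lmod3* protein and nebulin, rose from 0.341 ± 0.460 to 8.61 ± 4.51 and from 0.28 ± 0.229 to 4.76 ± 0.354 FPKM. The cap gene *Tmod1* rose from 0.670 ± 0.276 to 6.85 ± 4.07 and from 0.503 ± 0.0474 to 2.94 ± 0.230 FPKM, though its exons share 1287 bases with *Tstd2* on the other strand. *Tmod4* was not called, at 1.47, 1.09 and 1.16 and then 1.14, 1.39 and 1.99 FPKM in WT cells and at 1.26, 1.43 and 1.15 and then 1.97, 1.87 and 1.91 FPKM in PPARγ/+ cells.

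The desmin filament ties neighbouring Z-discs together. *Des*, the gene of desmin, was among the most abundant members on both days, at 138, 180.1 and 108 FPKM in WT_0d and 558, 478 and 135 FPKM in WT_5d. In PPARγ/+ cells it was at 45.5, 49.2 and 62.9 and then 199, 224 and 239 FPKM. The rise of 2.08 ± 0.13 in PPARγ/+ cells passed the test. The change in WT cells, 1.25 ± 0.55 with an unadjusted p of 0.0594, did not, and without replicate 3 of WT_5d it was 1.90 ± 0.23 and passed. *Synm*, coding for the desmin partner synemin, went from 0.269, 0.252 and 0.247 to 0.858, 1.96 and 4.52 FPKM in WT cells and from 0.458, 0.468 and 0.606 to 4.71, 4.39 and 3.44 FPKM in PPARγ/+ cells. It rose by 2.55 ± 0.54 and 2.81 ± 0.17, and unlike nearly all other members it was highest in WT_5d replicate 3.

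Assembly factors split into muscle genes that rose and stress-related genes that were high throughout. *Unc45b*, coding for a myosin chaperone, rose from 0.0826 ± 0.0969 to 8.06 ± 4.69 FPKM in WT cells and from 0.0161 ± 0.0126 to 3.19 ± 0.524 in PPARγ/+ cells. *Smyd1*, a muscle lysine methyltransferase gene, rose from 0.625 ± 0.426 to 9.26 ± 4.94 and from 0.0748 ± 0.0429 to 2.67 ± 0.365 FPKM. *Trim54*, the gene of the ubiquitin ligase MuRF3, rose from 1.79 ± 0.468 to 10.6 ± 5.05 and from 0.953 ± 0.537 to 4.63 ± 0.843 FPKM. *Trim55*, that of MuRF2, was at 2.89, 4.85 and 1.87 and then 21.6, 16.0 and 5.12 FPKM in WT cells, and at 0.416, 0.231 and 0.551 and then 4.75, 5.25 and 4.11 FPKM in PPARγ/+ cells, and rose by 1.99 ± 0.59 and 3.31 ± 0.26. *Bag3*, whose product works with Hsp70 in the turnover of Z-disc proteins, was at 48.1, 37.1 and 36.2 and then 32.4, 39.1 and 39.6 FPKM in WT cells, and at 50.9, 57.8 and 49.6 and then 38.0, 38.9 and 45.2 FPKM in PPARγ/+ cells. *Cryab*, coding for the small heat shock protein αB-crystallin, was at 256, 160.2 and 142 and then 238, 245 and 157 FPKM in WT cells, and at 209.9, 321 and 240.3 and then 162, 180.3 and 177 FPKM in PPARγ/+ cells. Neither was called. The exons of *Cryab* share 252 bases with those of *Hspb2* on the other strand.

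The 3 muscle ankyrin repeat genes, whose products bind titin and respond to stretch, differed widely in level. *Ankrd1* was at 188, 264 and 183 and then 559, 385 and 256 FPKM in WT cells, and at 144, 95.1 and 131 and then 253, 293 and 283 FPKM in PPARγ/+ cells. It rose by 1.18 ± 0.16 in PPARγ/+ cells, and its change in WT cells, 0.87 ± 0.30, was under 2-fold. *Ankrd2* rose steeply, from 0.187, 0.685 and 0.118 to 37.8, 17.8 and 2.59 FPKM in WT cells and from 0.335, 0.209 and 0.125 to 9.12, 10.5 and 12.5 FPKM in PPARγ/+ cells. *Ankrd23* was at 1.74, 1.49 and 1.49 and then 23.2, 17.4 and 5.87 FPKM in WT cells, and at 1.65, 2.14 and 2.04 and then 3.80, 3.94 and 4.20 FPKM in PPARγ/+ cells. Its log2 rise was 3.01 ± 0.48 for the WT cells, an 8.06-fold change, and 1.01 ± 0.12 for the PPARγ/+ cells, a 2.01-fold change. Its annotated exons share 2109 bases with those of *Gm42417* on the same strand.

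**Figure D3:**
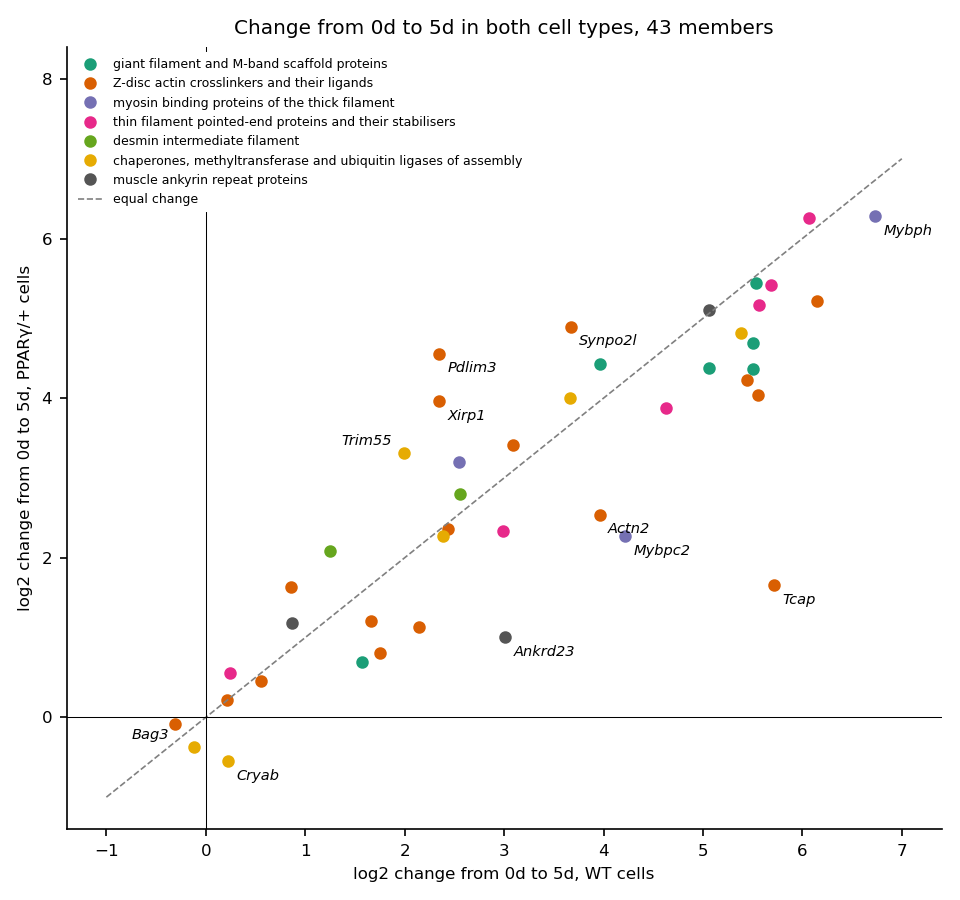
Change from 0d to 5d on the log2(FPKM + 0.1) scale in WT cells (x axis) and PPARγ/+ cells (y axis) of the 43 members tested, coloured by role, with a dashed line of equal change. Most genes lie near the line, *Tcap*, *Ankrd23* and *Mybpc2* lie well below it, and *Pdlim3*, *Xirp1* and *Trim55* lie above it.

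On 5d the PPARγ/+ libraries lay lower than the WT libraries in most of these genes, but no single member passed the test. Of the 43, 39 had a negative log2 difference and 4 a positive one, with a median of -0.94 against 0.02 over all genes. That median was -1.58 without replicate 3 of WT_5d and -0.55 without its replicate 1. limma called 0 members higher and 0 lower at a Benjamini-Hochberg adjusted p of at most 0.05 and a difference of at least 2-fold, where 0.0943% of all genes were called higher and 0.061% lower. At an unadjusted p of at most 0.05 there were 10: *Tcap*, *Pdlim3*, *Myoz2*, *Actn2*, *Myom3*, *Ankrd23*, *Neb*, *Smyd1*, *Trim55* and *Trim54*, all with lower values in PPARγ/+ cells, where 12.7% of all genes passed this p in either direction. limma's voom on the recovered fragments called 0 members as well, and array weights, which count a divergent library less, called 18, all lower, against 2.09% of all genes.

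By size, *Tcap* and *Pdlim3* led these differences. By limma, *Tcap* differed by -3.31 ± 0.88 (adjusted p = 0.233) and *Pdlim3* by -2.26 ± 0.60 (0.234) on the log2 scale. *Myoz2* differed by -1.88 ± 0.67 (0.346), *Actn2* by -1.84 ± 0.59 (0.303), *Mybpc2* by -1.79 ± 1.18 (0.561), *Myom3* by -1.73 ± 0.59 (0.329) and *Ankrd23* by -1.72 ± 0.50 (0.266). In 8 members, *Actn2*, *Ankrd23*, *Myom3*, *Myoz2*, *Neb*, *Pdlim3*, *Smyd1* and *Tcap*, every PPARγ/+_5d library lay below every WT_5d library, replicate 3 included. That was so for 8.31% of all genes. The opposite order was found in 0 members and 10.2% of all genes. The members of positive difference were *Synm*, *Mybpc1*, *Tmod4* and *Bag3*, and their groups overlapped. Without replicate 3 of WT_5d the difference of *Mybpc1* turned to -0.11.

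Replicate 3 of WT_5d decided this comparison. Without it, 31 of the 43 members were called lower in PPARγ/+ cells, against 2.82% of all genes, with the 2 WT libraries left. Leaving out a library chosen for its low values in these members raises their WT level. The calls and SEs without it are therefore a description and not a separate test. The differences were then -4.29 ± 0.43 for *Tcap*, -3.20 ± 0.25 for *Mybpc2*, -2.97 ± 0.19 for *Pdlim3*, -2.66 ± 0.25 for *Myoz2* and -2.53 ± 0.19 for *Actn2*. Those of *Myom2*, -1.33 ± 0.09, and *Des*, -1.23 ± 0.12, were smaller. In replicate 3 itself, 21 members lay below the range of the 3 PPARγ/+_5d libraries, 13 within it and 9 above it. *Pdlim3* was one of those above, at 18.1 FPKM beside 8.19, 11.2 and 11.1, and *Tcap* another, at 1.67 FPKM beside 0.356, 0.981 and 0.568.

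**Figure D4:**
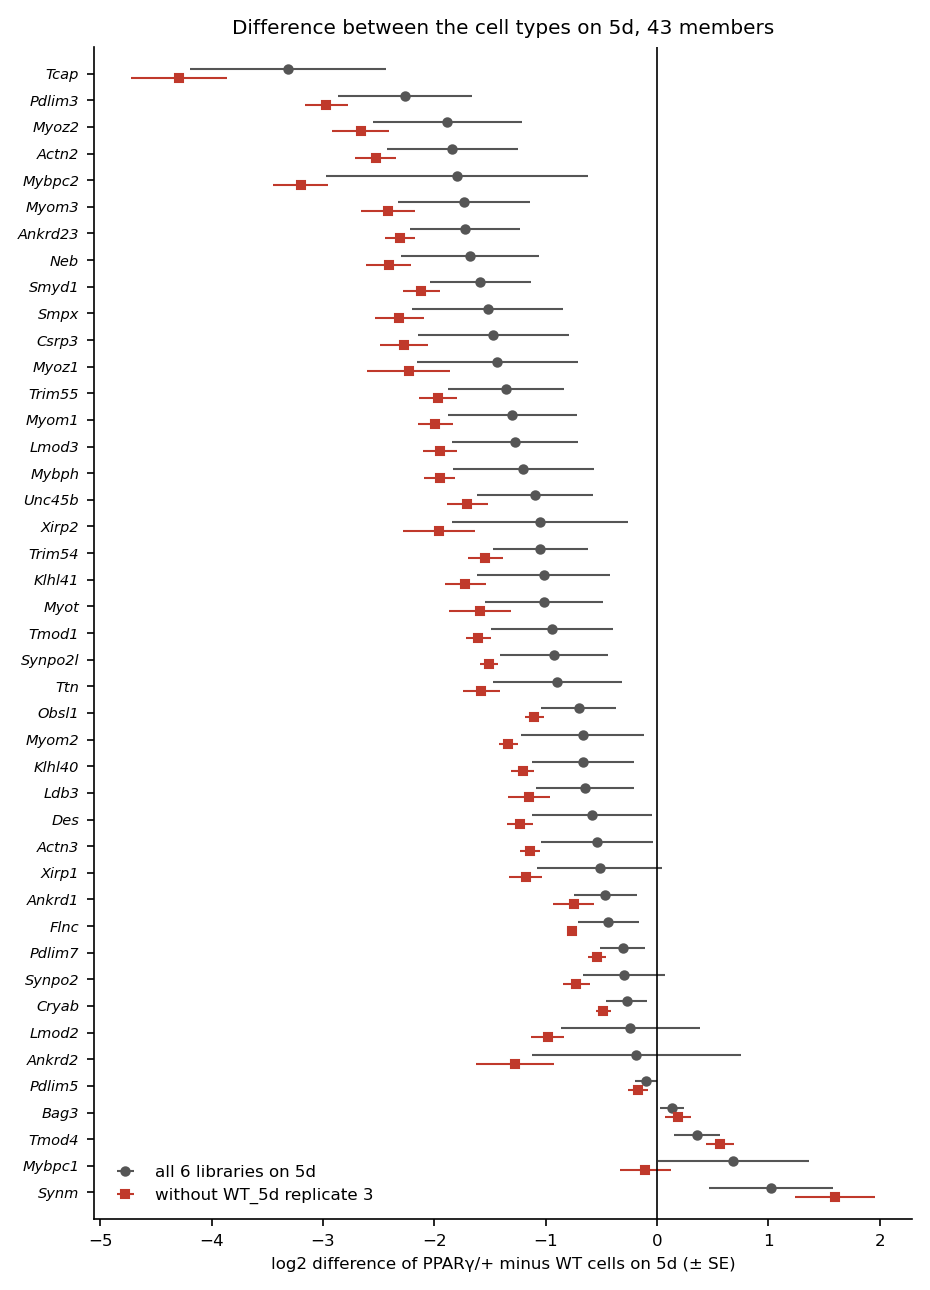
Difference of PPARγ/+ from WT cells on 5d for the 43 members tested, on the log2(FPKM + 0.1) scale with the SE of the fit as bars, from all 6 libraries of that day (circles) and without replicate 3 of WT_5d (squares). Most circles lie left of 0, from -3.31 for *Tcap* to 1.02 for *Synm*, and most squares lie further left.

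On 0d, before differentiation, 4 members were called lower in PPARγ/+ cells: *Pdlim3*, *Trim55*, *Xirp2* and *Des*. By limma 0 members were called higher, and 15 members had an unadjusted p of at most 0.05, as had 21.7% of all genes. Over all genes, 1.23% were called lower and 0.361% higher, and the median difference of the members was -0.49, against 0.02 over all genes. Without WT_0d replicate 2, the high library of its group, that median was -0.04, against 0.01 over all genes, and 1 member, *Pdlim3*, was called. *Pdlim3* differed by -4.48 ± 0.46 (adjusted p = 0.0139), so that its level was 22.3-fold lower in PPARγ/+ cells on this scale. *Trim55* differed by -2.68 ± 0.41 (0.03), *Xirp2* by -1.82 ± 0.32 (0.0428) and *Des* by -1.41 ± 0.21 (0.029). The 0d values given above show no overlap of the cell types in any of the 4.

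These calls did not last when single libraries were left out. With any 1 of the 6 libraries missing, 0 to 2 of the 4 members were called, 0 of them without WT_0d replicate 1 or PPARγ/+_0d replicate 2, while the direction of all 4 held. voom on the recovered fragments called 6 members, the 4 named with *Smyd1* and *Xirp1*, against 1.86% of all genes. In 14 members every PPARγ/+_0d library lay below every WT_0d library, against 13.1% of all genes: the 4 named and *Actn3*, *Ankrd1*, *Flnc*, *Ldb3*, *Pdlim5*, *Pdlim7*, *Smyd1*, *Synpo2l*, *Ttn* and *Xirp1*. In 3 members, *Bag3*, *Obsl1* and *Synm*, every PPARγ/+_0d library lay above, against 13.7% of all genes. Among them *Synpo2l* differed by -2.15 ± 0.61 (adjusted p = 0.118), *Xirp1* by -2.13 ± 0.48 (0.0706), *Smyd1* by -1.93 ± 0.43 (0.0694) and *Synm* by 0.77 ± 0.17 (0.0706).

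**Figure D5:**
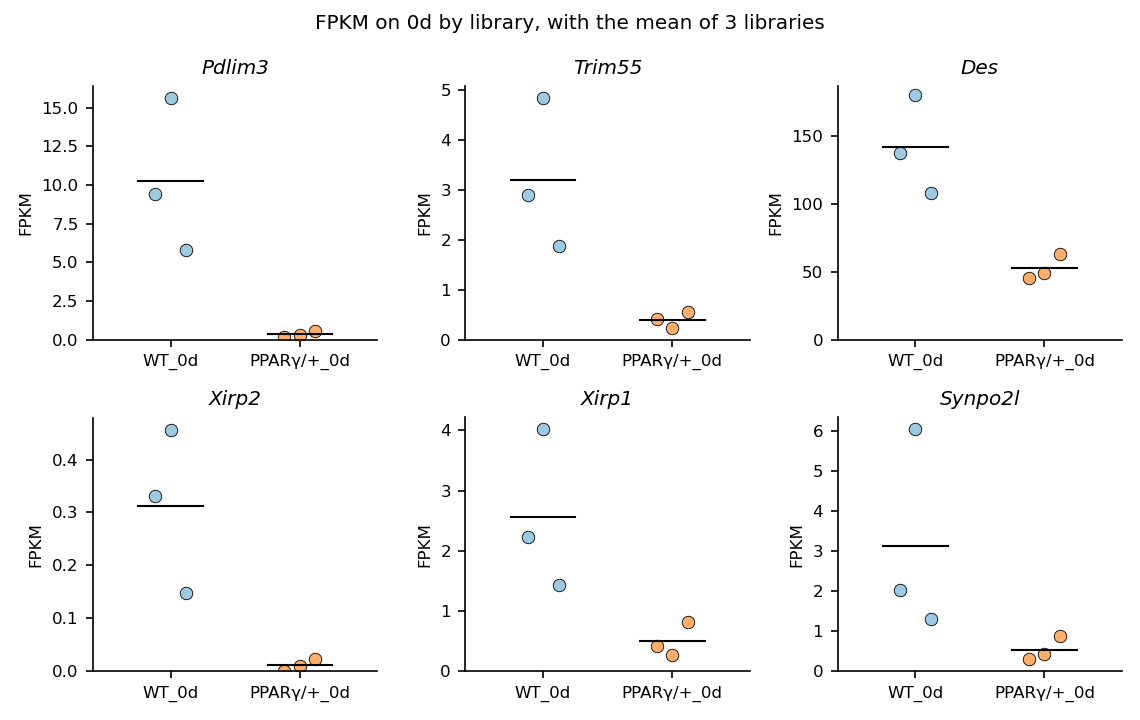
FPKM on 0d of *Pdlim3*, *Trim55*, *Des*, *Xirp2*, *Xirp1* and *Synpo2l* in each library of WT and PPARγ/+ cells, on a linear axis from 0 for each gene, with 1 point per library and a bar at the mean. In each gene all 3 PPARγ/+ points lie below all 3 WT points.

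The interaction of cell type and day, fitted over all 12 libraries, asked whether the step from 0d to 5d differed in size. limma and voom both called 0 members at an adjusted p of at most 0.05, where by limma 0.583% of all genes had a positive interaction, that is a higher log2 change in PPARγ/+ than in WT cells, and 0.178% a negative one. At an unadjusted p of at most 0.05 there were 5 members, a share near that of all genes, 12%, so their values are given as a description. *Tcap*, with an interaction of -4.06 ± 1.04 on the log2 scale (adjusted p = 0.125), and *Ankrd23*, with -2.0 ± 0.53 (0.139), had the smaller change in PPARγ/+ cells, as had *Obsl1*, with -0.88 ± 0.36. *Cryab*, with -0.77 ± 0.33, had changes of opposite sign, 0.22 ± 0.27 in WT and -0.55 ± 0.15 in PPARγ/+ cells, neither of them called. *Pdlim3* had the larger change there, 2.21 ± 0.78 (0.272), from its low level on 0d. Without replicate 3 of WT_5d, 7 members were called, *Tcap*, *Mybpc2*, *Ankrd23*, *Myoz2*, *Actn2*, *Obsl1* and *Ldb3*, all with the smaller change in PPARγ/+ cells, against 1.52% of all genes. The interactions were then -5.04 ± 0.70 for *Tcap*, -3.36 ± 0.34 for *Mybpc2* and -2.59 ± 0.20 for *Ankrd23*. These fitted values depend on the 0.1 FPKM added, since *Tcap* and *Mybpc2* were at a few fragments on 0d.

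The contractile chains, which share the sarcomere with these genes, were set beside them. Of 22 chains tested, 20 rose and 0 fell from 0d to 5d in WT cells, and 19 rose and 1 fell in PPARγ/+ cells. On 5d all 22 had a negative difference between PPARγ/+ and WT cells, with a median of -1.73, and 0 were called. At an unadjusted limma p of at most 0.05 there were 13, where 12.7% of all genes passed this p in either direction. *Acta1*, the skeletal α-actin gene, was at 2156, 1725 and 491 FPKM in WT_5d and 622, 714 and 715 FPKM in PPARγ/+_5d, and in WT_5d replicate 3 it was again the lowest of its group. *Myod1* was at 34.9, 41.5 and 19.9 FPKM in WT_5d and 19.6, 22.1 and 20.4 FPKM in PPARγ/+_5d (two-sided exact permutation p = 0.3), and for *Myog* the exact p on 5d was 0.2.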

How the data were processed

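RNA of C2C12 cells (WT with the PB-IP vector, and PPARγ/+) was sequenced on 0d and 5d with 3 libraries per group. The authors trimmed the reads, aligned them with STAR, counted them on genes with HTSeq and deposited FPKM per gene and library, the values used here. The methods name GRCm38 and the submitters' processing notes mm9, and matching was by Ensembl identifier. A deposited table of the same values on a log scale was not used.

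Genes that reached 0.1 FPKM in 3 or more of the 12 libraries entered the tests, on log2(FPKM + 0.1), with limma 3.58.1 in R 4.3.3 (empirical Bayes with a mean-variance trend), each comparison on its own 6 libraries and the interaction on all 12. A change from 0d to 5d was called where it reached 2-fold with an unadjusted p-value no greater than 0.05. Differences between cell types needed a Benjamini-Hochberg adjusted p-value over all genes of at most 0.05 and a fold of at least 2, and interactions the adjusted p-value alone. Adjusted p-values in the text are limma's.

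Whole fragments were recovered as FPKM times exonic length times mapped read pairs, with a tolerance of 0.001. The annotated length gave whole numbers for 21058 of the 27138 genes above 0, an inferred length for 6066, and 14 gave none. They served for depth, for ratios with exact 95% intervals, which cover counting error only, and for the floor of 3 fragments. limma was tested on simulated data. Gene overlaps are from GENCODE M21, promoters from RefSeq (GRCm38.p6).

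By a rule on these same results, 30 members (such as *Pdlim3*, *Tcap*, *Des* and the ankyrin repeat genes) were picked for detail. Grounds included a call between cell types, no call as risen in a cell type, or failing the filter on low values. The picked members thus lean to the extremes and were not chosen beforehand. They are given per library, *Myoz3* and *Mybpc3* as fragments per group, and the other 15 in the main as group means. Members, names and lists were chosen with earlier results of these data known.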

Additional observations from a re-analysis of the deposited data

How the results depend on the processing

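Members that rose from 0d to 5d numbered 30 to 37 in WT cells and 28 to 36 in PPARγ/+ cells over all alternatives (the value added to the FPKM, the filter, the scaling, array weights, voom, 1 library left out), against 34 and 35 as reported, and no called member changed direction. Median-ratio scaling moved the median of all genes from -0.08 to 0.02 in WT cells and from -0.10 to 0.02 in PPARγ/+ cells, and left the counts at 34 and 35. On 5d the count of members lower in PPARγ/+ cells, 0 as reported, was 1 with all 12 libraries in one fit (96 of all 18023 genes lower). It was 18 with array weights (2.09% of all genes lower) and 10 by the unadjusted p with the 2-fold cut (327 genes lower). With 1 library left out it was 0 to 31, 31 without WT_5d replicate 3 (2.82% of all genes lower). On 0d the 4 members called became 1 with no filter (81 of 27138 genes lower) and 8 by the unadjusted p with the 2-fold cut (435 of 18023 genes lower). They became 0 with a replicate block, where 0 of all genes were called, and 0 to 2 with 1 library left out (34 to 82 genes lower). For the interaction, 0 as reported, array weights called 5 members, all negative, where 389 of 18023 genes were negative. By the unadjusted p there were 5, near the 12% of all genes. With 1 library left out the counts were 0 to 7, 7 without WT_5d replicate 3 (1.52% of all genes negative). There were 15, all negative, without both this library and WT_0d replicate 2, where 299 genes were negative. That last alternative was chosen after seeing the data. The cause of these shifts was not tested. Libraries of the same replicate number in different groups correlated at -0.07 to 0.08 in their deviations from the group means. For 17 of 36 pairings of a library with another group, the best correlation was with its own number. Each such pairing had 3 candidates, and the count to be had by chance was not taken. A pairing by replicate number is thus neither shown nor excluded. The fit with the replicate block called 34, 35, 0, 0 and 0 members in the 5 comparisons. Low counts limit *Actn2*, *Myot*, *Myoz1*, *Myoz2*, *Myoz3*, *Tcap*, *Csrp3*, *Smpx*, *Mybpc1*, *Mybpc2*, *Mybpc3* and *Unc45b*, each at 3 fragments or fewer in at least 4 of the 6 libraries of 0d.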

Other observations

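Relatives of the members that are widely expressed or belong to other tissues were listed beside them, 16 in all with 15 tested. From 0d to 5d, 1 of these rose and 2 fell in WT cells, and 2 rose and 0 fell in PPARγ/+ cells. *Flna*, the filamin gene of most cell types, had means of 251 ± 8.53 FPKM in WT_0d and 123 ± 2.89 FPKM in WT_5d (SD, n = 3), and of 194 ± 5.86 and 112 ± 0.645 FPKM in the PPARγ/+ groups. Its muscle relative *Flnc* was at 46.2 ± 5.39 and then 70.8 ± 24.2 FPKM in WT cells and at 36.4 ± 2.59 and then 49.9 ± 1.26 FPKM in PPARγ/+ cells, so that the order of the pair in level, *Flna* above *Flnc*, was kept in all 4 groups. *Vim*, coding for vimentin, was at 1299 ± 49.7 FPKM in WT_0d, 530.0 ± 107 in WT_5d, 1491 ± 5.94 in PPARγ/+_0d and 941 ± 13.1 FPKM in PPARγ/+_5d.

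Of 10 genes of the cell cycle, all 10 fell from 0d to 5d in both cell types by limma. In WT_5d replicate 3, where the members were low, these genes summed to 46.7 FPKM, beside 61 and 54.6 in the other WT_5d libraries and 47.0 to 49.8 in PPARγ/+_5d, against 355 to 461 FPKM in WT_0d. The contractile chains summed to 2094 FPKM in that library, beside 9361 and 6774 FPKM, and to 1933 to 2228 FPKM in PPARγ/+_5d.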
